A study of Drosophila melanogaster with 26 samples.

Results

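This account covers 9 protein-coding genes of Drosophila melanogaster that carry only a CG number in the deposited tables and whose transcripts were more abundant in both zelda mutants than in wild type. They were chosen from 6197 CG-numbered symbols among 14220 gene symbols by a mean of at least 3 TPM over the 9 Zf5 libraries and over the 8 Zld294 libraries, each at least 2.5 times the larger of the wild-type group means. TPM is a transcript's abundance corrected for its length and expressed relative to a fixed total per library, so levels of different genes can be set beside each other. The 9 genes are CG3104, CG30059, CG18304, CG42342, CG4562, CG17167, CG9170, CG9512 and CG1233. Because the mutant and wild-type means selected the genes, their excess over wild type is given as a description, without a test. In the current annotation 7 of the 9 still have no name beyond the number, while CG4562 is called Mrp5 and CG9170 is called Cep164.

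The series compares embryos with and without the fifth zinc finger of Zelda, staged to nuclear cycles 13 to 14, with 3 embryos pooled per library. Wild type was represented by 3 libraries from sfGFP-ZLD embryos on day 1 and by 6 from H2B-EGFP embryos on day 2. The deletion of the finger, Zf5, has the genotype mNG-ZF5 GLC, with 3 libraries from day 1 and 6 from day 2. Zld294, the name of a loss-of-function allele of zelda, contributed 8 libraries, all from day 3. The labels do not spell out GLC or give the age of the embryos in minutes, and they do not say whether the libraries of a group came from separate collections, so p-values measure only the spread between these libraries. The wild-type genotype label changes with the day and Zld294 occurs on day 3 alone, so those differences in genotype and in day cannot be told apart. The transcript of zld itself ran from 900 to 1344 TPM in wild type, from 148 to 953 TPM in Zf5 and from 0.0873 to 43.2 TPM in Zld294. Within Zld294, replicates 7 and 8 held 43.2 and 20.2 TPM, and the other libraries at most 2.39 TPM.

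Zelda is a zinc finger transcription factor supplied by the mother that opens chromatin and primes the first wave of zygotic transcription. At the same stage the transcripts that the mother loaded into the egg are degraded, partly by factors that the zygote itself has to make. The total RNA of pooled embryos does not tell newly made transcript from maternally supplied transcript, and fewer cells with a transcript cannot be told apart from less of it per cell.

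Some Zf5 libraries stood apart in the maternal and zygotic RNA they held. The maternal score, the mean log2(TPM + 1) of 40 maternally loaded transcripts that embryos clear, ran from 6.10 to 8.08 in wild type, from 5.10 to 8.31 in Zf5 and from 7.40 to 8.24 in Zld294. Replicates 1 and 3 of Zf5 day 2 had the highest maternal scores of their group, 8.31 and 8.19, and its lowest scores of 38 early zygotic genes, 1.19 and 1.45. Replicates 4 and 6 had the lowest maternal scores of that group, 5.72 and 5.10, and its highest scores of 26 late cycle 14 genes, 3.40 and 3.42. Replicates 4 and 6 also had the highest scores of the group, as the mean log2(TPM + 1), for markers of adult or larval tissue, 0.563 and 0.569 against 0.0641 to 0.193 in its other libraries, and for testis markers, 1.13 and 1.22 against 0.438 to 0.768. They had the most symbols above 0, 11887 and 12165. None of the 9 genes is in these lists.

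Little is known of most of these genes, and a role is given only where it is established. CG4562 (Mrp5) belongs to the subfamily C of ATP-binding cassette transporters, membrane pumps that export organic anions. CG9170 (Cep164) bears the name of human CEP164, a protein of the centriole's distal appendages required for cilium assembly in vertebrates. CG9512 belongs to the glucose-methanol-choline oxidoreductases, a family clustered within the flotillin gene Flo2 on chromosome X. No role is assigned here to CG3104, CG30059, CG18304, CG42342, CG17167 or CG1233.

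In BDGP6.54 the genes are spread over the genome. CG3104 lies on the minus strand of 2L from 2848989 to 2855778, and CG18304 on the minus strand of 2L from 6932545 to 6942814. CG42342 spans 16502770 to 16571363 on the plus strand of 3R, which at 68594 bp makes it the longest of the 9, with 12 annotated transcripts. CG4562 lies on the minus strand of 3R from 19865417 to 19875678 and CG1233 on the plus strand of 3L from 361472 to 365681. On chromosome X lie CG9512 (14901844 to 14905549, minus strand), CG9170 (15977967 to 15982944, minus strand) and CG17167 (23068301 to 23081144, plus strand). These 3 are 4.87, 3.79 and 3.30 Mb from zld. CG30059, on the minus strand of 2R, is the shortest at 1852 bp.

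As a set the genes were long and had several transcripts. Their median gene length was 6790 bp, against 2215 bp for the 1900 CG-numbered symbols with a mean of at least 3 TPM in both mutants. A length over 10 kb was found in 4 of the 9, against 9.84% of those 1900, and more than 1 annotated transcript in 8 of the 9, against 56.5%. Among the 4, CG18304 and CG4562 were just past the cut, at 10270 and 10262 bp. The median of the longest coding length was 2493 bp, against 1188 bp. The 33 genes with other symbols that met the same thresholds had a median gene length of 12022 bp, 54.5% of them were over 10 kb, 69.7% had more than 1 transcript and their median longest coding length was 1668 bp. On chromosome X lay 3 of the 9 genes, against 18.7% of the 1900 and 0 of the 33. These are descriptions of 9 genes and were not tested.

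Neighbouring genes were examined for a like pattern. None of the 18 nearest neighbours and none of the 7 overlapping genes met the thresholds. RpS21, a ribosomal protein gene 291 bp from CG3104, was at 651 TPM in Zf5, 444 TPM in Zld294 and 599 TPM in wild type of day 1. Cdc5, 88 bp from CG1233, was at 246 TPM in Zf5, 192 TPM in Zld294 and 198 TPM in wild type of day 2. The neighbour that came closest was CG9514, another oxidoreductase of the same family 4952 bp from CG9512, at 2.77 TPM in Zf5 and 1.35 TPM in Zld294 against 0.0566 TPM in the higher wild-type group. Its means are under the minimum of 3 TPM.

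Overlapping genes were all on the other strand, and whether the quantification used strand is not given in the sources used here. By share of exonic bases the largest overlaps were 272 bp with BaraA1 in CG30059 (16.2%), 386 bp with CG17163 in CG17167 (12.98%) and 456 bp with CG4686 in CG4562 (6.89%), followed by 348 bp with CG43232 in CG18304 (5.24%). BaraA1 averaged at most 0.398 TPM in any group. CG17163 was at 133 TPM in Zld294 and 143 TPM in wild type of day 2, far above CG17167, and CG4686 was at 98.4 TPM in Zld294 and 72.3 TPM in wild type of day 2. The share of reads of CG17167 and CG4562 that belongs to these partners was not tested. CG9512 shares 0 exonic bases with Flo2, and CG42342 and CG9170 overlap no other measured gene.

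**Figure D1:**
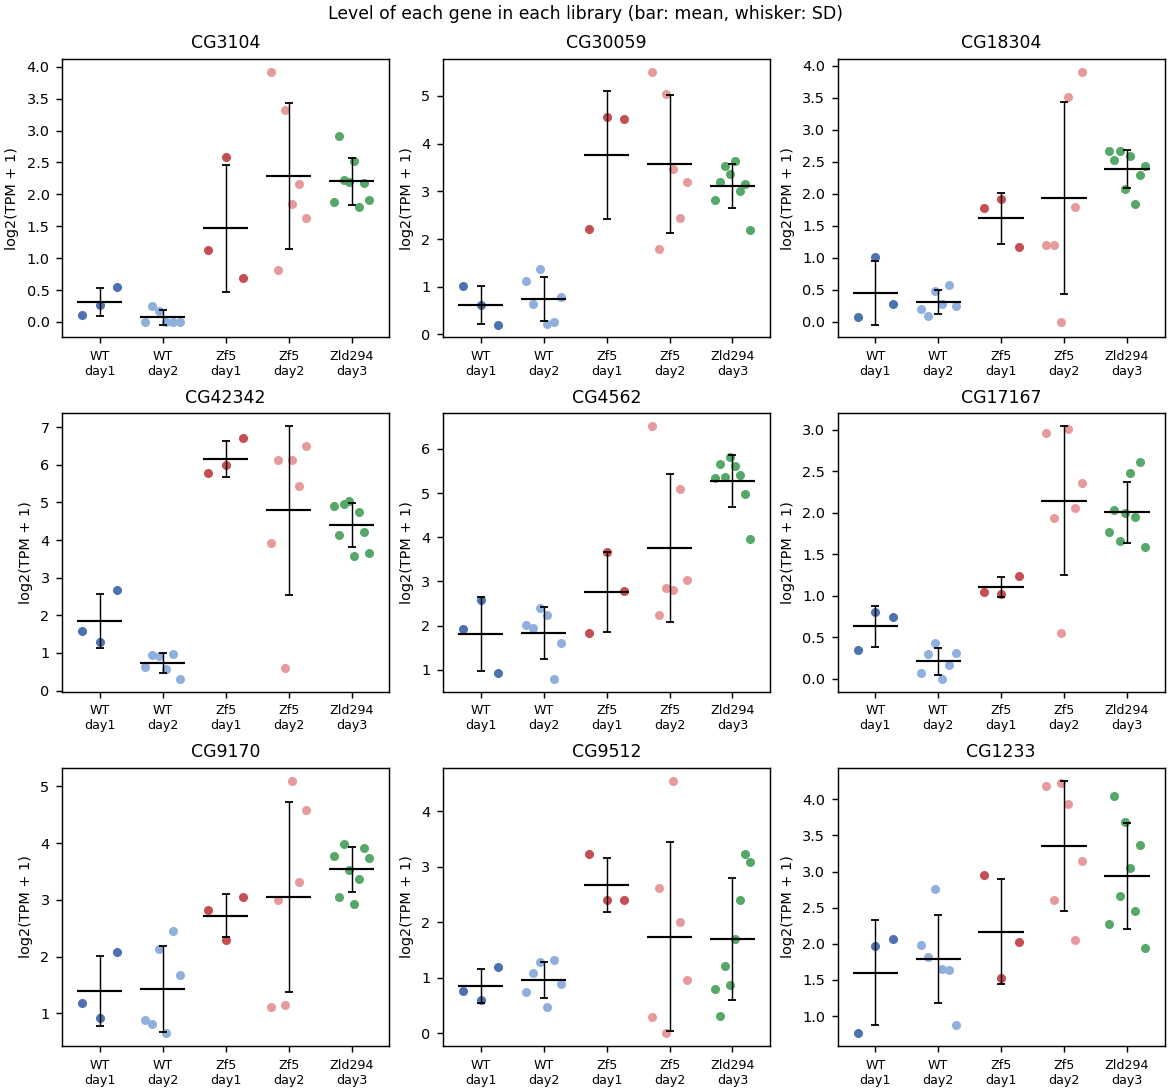
Level of each of the 9 genes as log2(TPM + 1) in every library, by group, with each point a library, the bar the mean and the whisker the SD. Zld294 lies above wild type in all libraries for 7 genes, and Zf5 of day 2 spreads most, from 0.526 to 89.1 TPM in CG42342.

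Complete separation from wild type was found for more of the 9 genes in Zld294 than in Zf5. For 7 of the 9 genes every Zld294 library lay above every wild-type library, and for 2 of the 9, CG3104 and CG30059, every Zf5 library did. Among all genes with a mean of at least 3 TPM in the mutant, 2.44% and 0.359% did so, respectively. The selection used this contrast, and all genes showed the same order of the mutants, so nothing about the 9 genes is read from the comparison. The exceptions in Zld294 were CG9512 and CG1233, each with 4 of 8 libraries above wild type. Each Zld294 library had 7 to 9 of the 9 genes above all wild-type libraries. Among Zf5 libraries the number ran from 4 in replicate 3 of day 2 to 9 in replicate 4 of day 2.

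The largest ratio of the lower mutant mean to the higher wild-type mean belonged to CG3104, at 15.05. Its level was 0.0796, 0.205 and 0.463 TPM in the wild-type libraries of day 1, and those of day 2 held 0 to 0.188 TPM with a median of 0. In Zf5 it was 1.19, 5.00 and 0.605 TPM on day 1 and ran from 0.766 to 14.2 TPM on day 2, with a median of 3.03 TPM. In Zld294 it ran from 2.48 to 6.58 TPM, with a median of 3.53 TPM. The groups did not overlap, but the gap between the lowest Zf5 library and the highest wild-type library was small, 0.605 against 0.463 TPM. The 2 highest Zf5 libraries were replicates 1 and 3 of day 2, and without this pair the Zf5 mean was 2.24 TPM, under the minimum.

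CG30059 had the next ratio, 10.8. Wild type held 1.03, 0.537 and 0.155 TPM on day 1 and 0.171 to 1.60 TPM on day 2, with a median of 0.636 TPM. Zf5 held 3.64, 22.4 and 22.0 TPM on day 1 and 2.44 to 44.4 TPM on day 2, with a median of 9.10 TPM. Zld294 held 3.57 to 11.4 TPM, with a median of 8.02 TPM. All mutant libraries were above all wild-type libraries, and the highest levels were again in replicates 1 and 3 of Zf5 day 2, at 44.4 and 32.1 TPM. Without them the Zf5 mean was still 10.4 TPM, 14.2 times the higher wild-type mean.

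CG18304 was near 0 in most wild-type libraries. Its wild-type values were 0.0462, 1.02 and 0.213 TPM on day 1 and 0.0577 to 0.487 TPM on day 2, with a median of 0.198 TPM. In Zf5 they were 2.41, 2.77 and 1.24 TPM on day 1 and 0 to 13.99 TPM on day 2, with a median of 1.87 TPM. The Zld294 libraries were close together, from 2.59 to 5.37 TPM with a median of 4.56 TPM. The high Zf5 mean rested on replicates 4 and 6 of day 2, at 10.35 and 13.99 TPM, and without this pair it was 1.64 TPM, under the minimum. Those libraries also had the highest scores of adult, larval and testis markers in their group. They had its highest scores of late cycle 14 genes and its lowest maternal scores as well. The part of any of these in the level was not tested. Replicate 3 of Zf5 day 2 was listed at 0.

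CG42342 reached the highest level of the 9 genes. In wild type it was at 2.001, 1.44 and 5.36 TPM on day 1 and between 0.239 and 0.974 TPM on day 2, with a median of 0.722 TPM. In Zf5 it was at 54.5, 62.5 and 103 TPM on day 1, and on day 2 it ran from 0.526 to 89.1 TPM with a median of 55.3 TPM. In Zld294 it ran from 11.0 to 31.8 TPM, with a median of 21.5 TPM. Of the 9 Zf5 libraries 8 were above every wild-type library. The exception was replicate 3 of day 2, at 0.526 TPM, and replicate 1 of day 2 was the next lowest at 14.3 TPM. Without replicates 1 and 3 the Zf5 mean was 69.9 TPM.

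CG4562, the ABC transporter gene, was the most abundant of the 9 in Zld294. Wild type had 2.81, 4.95 and 0.897 TPM on day 1 and 0.736 to 4.30 TPM on day 2, with a median of 2.94 TPM. Zf5 had 2.58, 11.6 and 5.91 TPM on day 1 and 3.70 to 90.5 TPM on day 2, with a median of 6.71 TPM. Zld294 had 14.6 to 55.01 TPM, with a median of 40.8 TPM. Every Zld294 library was above wild type, while Zf5 overlapped wild type in 2 libraries. Its Zf5 mean of 18.5 TPM rested largely on replicates 1 and 5 of day 2, at 90.5 and 33.01 TPM. It was 10.003 TPM without replicates 1 and 3, but that choice keeps replicate 5, and replicate 3 itself was at 6.24 TPM. The mean without replicates 1 and 5 was not computed. The median over the Zf5 libraries was 6.24 TPM, and with group medians CG4562 did not meet the thresholds.

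CG17167 was the least abundant in the mutants together. Its wild-type levels were 0.276, 0.743 and 0.677 TPM on day 1 and 0 to 0.346 TPM on day 2, with a median of 0.179 TPM. Its Zf5 levels were 1.07, 1.02 and 1.36 TPM on day 1 and 0.470 to 7.04 TPM on day 2, with a median of 3.63 TPM. Its Zld294 levels were 1.99 to 5.12 TPM, with a median of 2.92 TPM. Zf5 of day 1 lay narrowly above wild type, replicate 3 of Zf5 day 2 lay within its range, and the means of 3.09 and 3.14 TPM in the mutants were just past the minimum. The Zf5 mean was under it without replicates 1 and 3 of day 2, at 2.94 TPM, and without replicates 4 and 6, at 2.39 TPM.

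CG9170, named Cep164, varied with the library in wild type as well. It was at 1.27, 0.890 and 3.26 TPM on day 1 and 0.569 to 4.44 TPM on day 2, with a median of 1.53 TPM. Zf5 was at 6.05, 3.93 and 7.30 TPM on day 1 and 1.17 to 33.4 TPM on day 2, with a median of 7.97 TPM. Zld294 was at 6.65 to 14.9 TPM, with a median of 11.4 TPM. Replicates 1 and 3 of Zf5 day 2 and replicate 2 of day 1 were within the wild-type range, and replicates 4 and 6 were highest. Without replicates 4 and 6 the Zf5 mean was 5.09 TPM, which is 2.498 times the higher wild-type mean and just outside the threshold. Markers of adult, larval and testis tissue and scores of late cycle 14 genes were highest in that pair too. Its maternal scores were the lowest of Zf5 day 2. The part of any of these in the level of CG9170 was not tested.

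CG9512, the oxidoreductase gene, lay above every wild-type library in 6 of 9 Zf5 and 4 of 8 Zld294 libraries. Wild type showed 0.705, 0.519 and 1.30 TPM on day 1 and 0.383 to 1.48 TPM on day 2, with a median of 0.981 TPM. Zf5 showed 8.32, 4.25 and 4.25 TPM on day 1 and 0 to 22.4 TPM on day 2, with a median of 1.98 TPM. Zld294 showed 0.248 to 8.36 TPM, with a median of 1.79 TPM. Its highest libraries were replicates 7 and 8, at 8.36 and 7.52 TPM, and without either of them the gene no longer met the thresholds. These are also the Zld294 libraries with the most zld transcript, whose part in the level was not tested. Day 1 was separate from wild type, whereas on day 2 and in Zld294 the lowest libraries were at or below the wild-type level.

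CG1233 was closest to the threshold among the 9, with a ratio of 2.78. In wild type it stood at 0.696, 2.92 and 3.20 TPM on day 1 and 0.843 to 5.76 TPM on day 2, with a median of 2.33 TPM. In Zf5 it stood at 6.75, 1.89 and 3.07 TPM on day 1 and 3.14 to 17.7 TPM on day 2, with a median of 11.1 TPM. In Zld294 it stood at 2.85 to 15.5 TPM, with a median of 6.31 TPM. The groups overlapped, and replicate 3 of wild type day 2, at 5.76 TPM, exceeded 4 of the 8 Zld294 libraries. Without replicates 1 and 3 of Zf5 day 2 the Zf5 mean went from 8.54 to 6.01 TPM, 2.21 times the higher wild-type mean and outside the threshold. The next gene inside the threshold was CG9512 with a ratio of 3.23, and the nearest outside it were CG30159 with 2.47 and CG31751 with 2.40.

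How far the selection depends on single libraries differs between the genes. When each of the 26 libraries was left out in turn, 5 of the 9 genes stayed past the thresholds every time: CG3104, CG30059, CG42342, CG4562 and CG9170. CG17167 was lost 5 times, CG1233 3 times, CG9512 2 times and CG18304 once. Of the 9 genes 6 passed without replicates 1 and 3 of Zf5 day 2, with CG3104, CG17167 and CG1233 lost, and 6 passed without replicates 4 and 6, with CG18304, CG17167 and CG9170 lost, both choices made after seeing the data. With group medians in place of means 7 genes passed, of which 3 were among the 9. These were CG30059, CG42342 and CG9170, whose medians in Zf5 were 10.1, 62.5 and 6.97 TPM.

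**Figure D2:**
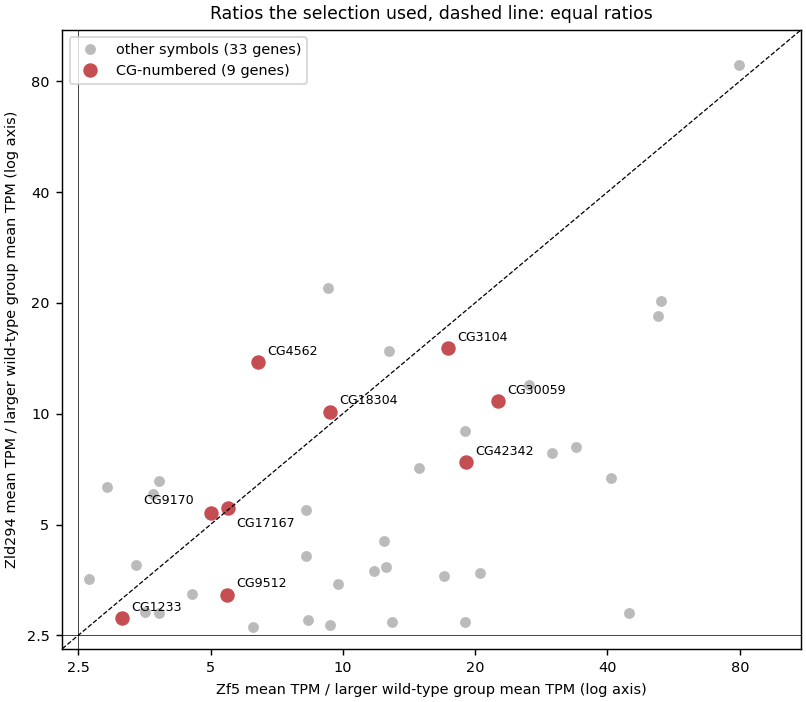
Zf5 mean over the larger wild-type mean (x) against Zld294 mean over the same (y), both on log axes, for the 9 CG-numbered genes and the 33 genes with other symbols that met the thresholds. CG4562 lies farthest above the line of equal ratios among the 9, at 6.41 in Zf5 and 13.8 in Zld294, and CG42342 lies farthest below it, at 19.1 and 7.37.

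The same thresholds were met by 33 genes with other symbols, so the 9 were part of 42 genes, 0.295% of all symbols. The median ratio was 6.41 among the 9 and 3.75 among the 33. The Zf5 mean exceeded the Zld294 mean in 5 of the 9 and in 25 of the 33. A further 90 CG-numbered genes met the thresholds in Zf5 alone and 13 in Zld294 alone. These counts describe the selection and were not tested.

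The difference between the mutants was not itself a criterion of the selection, but the selection required both mutant means to be high, so a test of it on these genes is not fully independent of the choice. It asks whether the genes stand at the same level when the fifth zinc finger is deleted and when the zld transcript is nearly lost. Of the 9 genes CG4562 alone passed limma's test at an adjusted p under 0.05, being higher in Zld294 by 1.84 on the log2(TPM + 1) scale (SE 0.53, adjusted p = 0.0445, 8 against 9 libraries). That is 1 of 9 higher and 0 of 9 lower, where 2.34% and 4.23% of the 7050 genes tested were called in those directions and 6.57% in either, so 1 call in 9 genes is no result about the set. The call was weak: leaving out any 1 of 13 of the 17 libraries ended it, namely replicates 1 to 3 of Zf5 day 1, replicates 2, 4 and 6 of Zf5 day 2 and replicates 1 to 7 of Zld294, with adjusted p-values up to 0.0905 in limma. Against Zf5 of day 1 alone the difference was 2.505 (limma adjusted p = 0.000423), and against Zf5 of day 2 alone it was 1.51 (limma adjusted p = 0.147). Without replicates 1 and 3 of Zf5 day 2 it was 2.20 (limma adjusted p = 0.00089), and without replicates 4 and 6 it was 1.70 (limma adjusted p = 0.114).

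None of the other 8 genes passed the test between the mutants. Their log2 differences ran from -0.84 in CG42342 (SE 0.66, limma adjusted p = 0.391) to 0.60 in CG9170 (SE 0.47, limma adjusted p = 0.393). The median over the 9 was 0.19, against 0.14 over all genes tested. With SEs of 0.33 to 0.66, these values do not show that the levels were alike. CG42342 passed as lower in Zld294 without replicate 3 of Zf5 day 2 (-1.42, limma adjusted p = 0.0173), without replicates 1 and 3 together (-1.69, limma adjusted p = 0.00033), a choice made after seeing the data, and against Zf5 of day 1 alone (-1.76, limma adjusted p = 0.00122). Against Zf5 of day 1 alone CG18304 (0.77, limma adjusted p = 0.0138) and CG9170 (0.81, limma adjusted p = 0.0178) passed as higher in Zld294, as did CG17167 (0.91, limma adjusted p = 0.00636). That comparison called 4231 genes in all, and the one without replicates 1 and 3 called 4112, against 463 in the main fit. The one without replicate 3 alone called 1219. The numbers tested under their own filters are not given here, so no share stands beside these calls. They are not read as a result about the 9 genes. Without replicates 4 and 6 of Zf5 day 2, also chosen after seeing the data, CG18304 was the gene called. That fit called 382 genes in all.

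**Figure D3:**
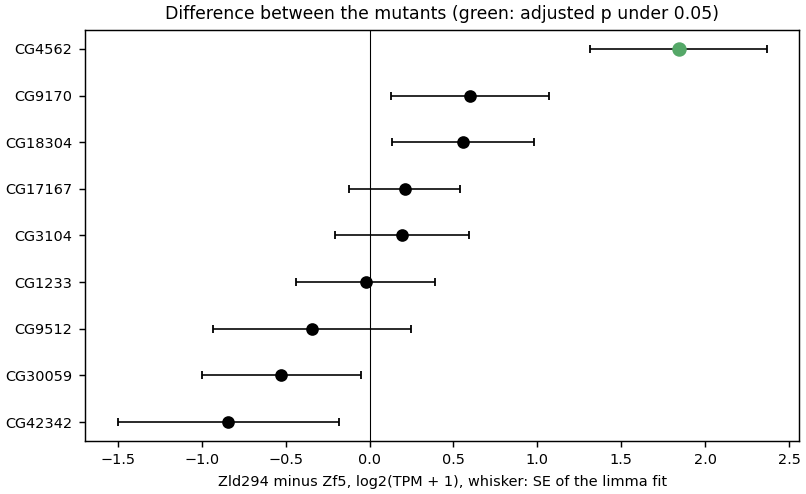
Difference between the mutants, Zld294 minus Zf5, on the log2(TPM + 1) scale for each of the 9 genes, with whiskers of 1 SE from the limma fit. CG4562 at 1.84 is the only gene past the threshold, and the others lie between -0.84 and 0.60.

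Within Zf5 the days were compared to see whether the level depended on the day. None of the 9 genes passed limma's test, and 0 of 7908 genes did, 0.0%. In simulated data this comparison recovered 46.5% of genes changed by 2 on the log2 scale, so the lack of calls does not show that the days were alike. At an unadjusted p under 0.05 there were 394 genes, none of them among the 9. The largest difference by size was -1.37 in CG42342 (SE 1.16, limma adjusted p = 0.856). The smallest unadjusted limma p belonged to CG1233 (1.19 higher on day 2, SE 0.61, unadjusted p = 0.0794, adjusted p = 0.856).

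The wild-type groups, against which the excess is measured, were compared as well. Of the 9 genes 6 were high enough to be tested, and 0 of the 6 passed limma's test, where 8.2% of 7160 genes did, 5.56% higher and 2.64% lower on day 2. CG42342 came closest: it was lower on day 2 by 1.12 (SE 0.32, unadjusted p = 0.00634, limma adjusted p = 0.0639), and was the only 1 of the 6 with an unadjusted p under 0.05. Without replicate 5 of wild type day 2 it passed, in a fit that called 1215 genes in all against 587 in the main fit. The number of genes tested in that fit is not given here, so no share stands beside the call. CG3104, CG18304 and CG17167 did not reach 1 TPM in 3 wild-type libraries and were not tested.

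Genes that mark the clearance of maternal RNA and the onset of zygotic transcription were compared in the same fit. Between the mutants 3 of 40 maternal genes were higher in Zld294 and 0 lower, with a median difference of 1.13: bcd, the maternal anterior determinant (2.46, SE 0.58, limma adjusted p = 0.0163), wisp, a cytoplasmic poly(A) polymerase (1.11, limma adjusted p = 0.0471), and CycA, a mitotic cyclin (0.78, limma adjusted p = 0.0197). Of 31 early zygotic genes 0 were higher and 1 was lower, bnb (-4.86, SE 1.35, limma adjusted p = 0.0395), with a median of -1.06, and of 18 late genes 0 passed in either direction, with a median of -0.91. Of all genes tested between the mutants, 2.34% were called higher and 4.23% lower in Zld294, so these few calls are not read as results about the lists. Between the days of Zf5 none of the 3 lists held a call. Between the wild-type groups the maternal list had 3 higher and 2 lower of 40 on day 2, and the zygotic lists had 0, where 5.56% and 2.64% of all genes tested were called higher and lower. With the maternal score as a covariate CG4562 no longer passed (0.90, limma adjusted p = 0.157), while CG18304 (1.33, limma adjusted p = 0.0146) and CG9170 (1.57, limma adjusted p = 0.00455) did. In that fit 1891 of the same 7050 genes were called, so 2 calls in 9 genes are no result about the set.

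**Figure D4:**
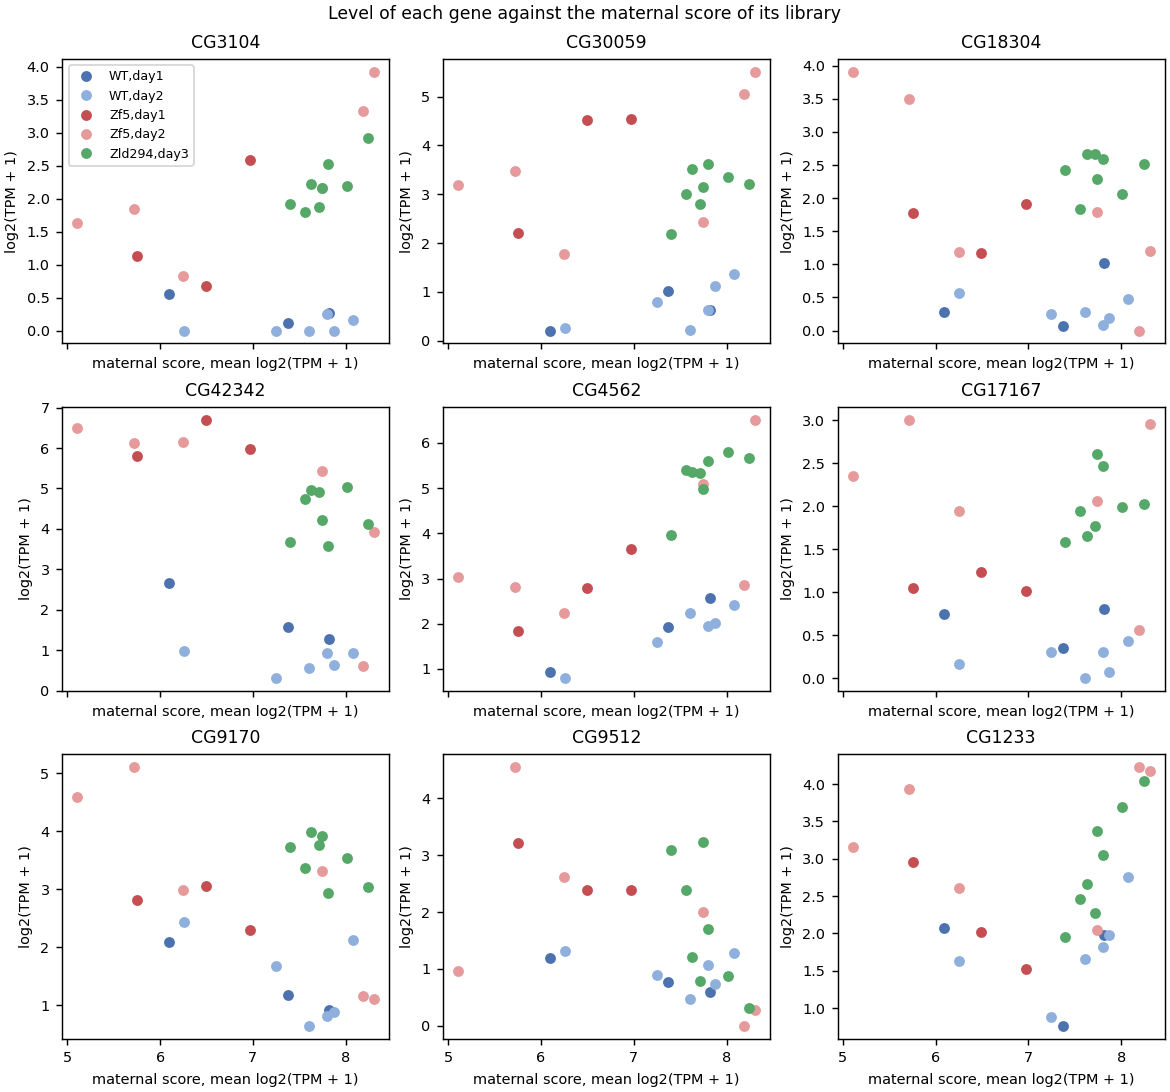
Level of each gene as log2(TPM + 1) against the maternal score of the same library, in all 26 libraries. Wild-type libraries cover scores of 6.10 to 8.08 and stay low for CG3104, CG30059 and CG17167 across that range, while CG4562 and CG1233 lie higher at high scores in Zld294 and CG9170 and CG42342 lie lower at high scores in Zf5. Of these relations to the score only that of CG1233 in Zld294 passed after adjustment, by Pearson's r.

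Within the mutants the genes did not all follow the maternal score in the same direction. In the 9 Zf5 libraries CG3104 (Pearson's r = 0.76, Spearman's rho = 0.67) and CG4562 (r = 0.68, rho = 0.57) were higher where the maternal score was higher, and CG9170 (r = -0.81, rho = -0.75), CG18304 (r = -0.74, rho = -0.58) and CG42342 (r = -0.72, rho = -0.72) were lower. By exact permutation none of these passed after adjustment over the 27 relations computed, with adjusted p-values of 0.0994, 0.114, 0.0755, 0.0994 and 0.0755 for r and of 0.159, 0.233, 0.159, 0.224 and 0.159 for rho, in the order given. Unadjusted, the permutation p-values for r were 0.0195, 0.0377, 0.00839, 0.0221 and 0.00629. Within day 2 alone, with 6 libraries, r was 0.79 for CG3104, 0.63 for CG4562, -0.88 for CG9170, -0.83 for CG18304 and -0.75 for CG42342. Day 1, with 3 libraries, was too small for a value. Leaving out the 2 libraries farthest from the median score took r to 0.38 for CG3104, 0.74 for CG4562, -0.56 for CG9170, -0.61 for CG18304 and -0.56 for CG42342, so that the relation of CG3104 rests on those libraries.

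In Zld294 CG1233 alone passed, with r = 0.92 over 8 libraries (exact permutation p = 0.00067, adjusted p = 0.0181) and rho = 0.90 (adjusted p = 0.123 by exact permutation), and with r = 0.81 when the 2 farthest libraries were left out. In Zf5 the same gene had r = 0.17 over 9 libraries (rho = 0.12, exact permutation p = 0.644 and 0.776, adjusted p = 0.742 and 0.838), and r = -0.76 without the 2 farthest libraries. It was high in Zf5 both in the libraries richest in maternal RNA, at 17.1 and 17.7 TPM, and in replicate 4 of day 2, at 14.3 TPM. The difference between the mutants in these relations was not tested. CG18304 and CG42342, which were lower at high scores in Zf5, had r = 0.07 and 0.09 in Zld294, where the score itself varied less. CG3104, CG4562 and CG9170 kept in Zld294 the direction they had in Zf5, with r = 0.80, 0.72 and -0.52. None of these passed by exact permutation (adjusted p = 0.0994, 0.114 and 0.295). Without the 2 farthest libraries r was 0.47, 0.58 and -0.21.

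Markers of other tissues were summed in each library. The 22 genes of adult or larval tissue summed to between 0.514 and 2.71 TPM in wild type, 1.15 and 15.8 TPM in Zf5, and 1.61 and 29.0 TPM in Zld294. The highest single value was 27.6 TPM for the chorion gene Cp15 in a Zld294 library, and the muscle myosin gene Mhc reached 5.43 TPM. Among the other chorion genes Cp18 reached 2.13 TPM, Cp7Fb 1.51 TPM and Cp7Fc 1.09 TPM, each with its highest group mean in Zf5 of day 2, while Cp36 and Cp38 reached 0.171 and 0.232 TPM. Of 14 testis genes found, the sum lay between 21.8 and 97.7 TPM in wild type and between 55.2 and 126 TPM in the mutants. Most of it was bam, so the sum is mainly a reading of that gene. The gene bam averaged 23.4 and 63.2 TPM in wild type of day 1 and day 2. It averaged 87.1 and 59.9 TPM in Zf5 of day 1 and day 2, and 88.9 TPM in Zld294. The testis gene mia, which itself meets the thresholds, averaged 1.58 and 0.385 TPM in wild type of day 1 and day 2, 8.15 and 15.7 TPM in Zf5 of day 1 and day 2, and 4.36 TPM in Zld294. The testis genes can and betaTub85D reached 5.79 and 4.79 TPM. The sperm genes Mst84Da, Mst84Dc, ProtA and ProtB were at 0 in 25 or 26 of the 26 libraries. The 8 pole cell genes, which include maternal transcripts, summed to between 1273 and 2476 TPM in wild type, 657 and 2577 TPM in Zf5, and 1671 and 2553 TPM in Zld294. None of the 9 genes is in these lists. The part of these transcripts in the levels of the 9 genes was not tested.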

How the data were processed

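Each deposited file holds 1 value per gene symbol for 1 library. No header names the unit. Every column totals 1000000 across 14220 symbols with fractional entries, so the deposited values were taken as TPM made by the authors. kallisto, edgeR and limma and the build BDGP6 are named in the submitters' processing notes, with no role or version. TPM keeps no depth, so the reads per library are unknown and no counting interval is given. Between 8139 and 12165 symbols were above 0 and 6716 to 8913 reached 1 TPM. The highest correlation between libraries was 0.994, and no library appeared to be deposited more than once.

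The 9 genes and all lists were chosen with earlier results of these data known. Symbols were matched to the Ensembl annotation BDGP6.54, 13999 of 14220 by current symbol and 219 through RefSeq synonyms. Comparisons were fitted over all genes with limma 3.58.1, run under R 4.3.3, after log2 transformation of TPM with a pseudocount of 1, using a mean-variance trend. A gene entered where the number of libraries reaching 1 TPM was no less than the smaller group's size. The Benjamini-Hochberg adjustment over all genes was applied, with calls at 0.05. Fold changes of low genes are understated on this scale. The fits were tested on simulated data. Named genes are all 9 members, zld, the 2 nearest outside the fold threshold and the up to 3 largest called changes per list. Neighbours, overlapping genes and single marker genes were named after their values were seen. Alternatives were other pseudocounts, filters, scalings, covariates and left-out libraries.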

Additional observations from a re-analysis of the deposited data

Results flagged for a closer look

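Within the groups of 6 and 8 libraries, 27 combinations of gene and group were examined for a library far from the others. On the TPM scale 2 stood apart, with a gap to the next library of 0.662 and 0.772 of the group's range. A chance rate of about 1 in 20 holds only for normally distributed values, and TPM was not tested for that. Whether these libraries stand apart on the log2(TPM + 1) scale was not tested, so the flags are descriptions of TPM only. CG4562 was at 90.5 TPM in replicate 1 of Zf5 day 2, where the median of the group was 6.71 TPM. CG9512 was at 22.4 TPM in replicate 4 of the same group, where the median was 1.98 TPM. The former library had the highest maternal score of all Zf5 libraries and the latter 1 of the lowest, and their part in these values was not tested.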

How the results depend on the processing

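The number of the 9 genes called between Zld294 and Zf5 was 1 and moved in 21 of 30 alternatives. It was 0 with a pseudocount of 5 TPM, with no filter, with the replicate number as a block and against Zf5 of day 2 alone, 5 against Zf5 of day 1 alone, 2 with the maternal score as a covariate, 2 without replicates 1 and 3 of Zf5 day 2, and 0 to 2 when 1 library was left out. Of all genes, 463 were called, against 71 with the block, 4231 against day 1 alone, 1891 with the maternal score, 4112 without replicates 1 and 3, and 277 to 2095 when 1 library was left out. Same-numbered libraries did not deviate together (r from -0.77 to 0.72), so the numbers were not taken as pairs. CG4562 stayed higher in Zld294 in all 30, by 0.90 to 2.505, and past the threshold in 11. Between the days of Zf5 the number called was 0 in all 19 alternatives, the replicate block included. Between the wild-type groups it was 0, also with the block, which called 0 of all genes in place of 587, and 0 to 1 when 1 library was left out. At a mean of at least 5 TPM none of the 9 could be tested there.

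Small differences between the mutants changed sign. CG1233, at -0.02, was 0.052 with the block, 0.77 against day 1 alone, 0.33 without replicates 1 and 3 and 0.14 without replicates 4 and 6 of Zf5 day 2, and -0.20 to 0.13 when 1 library was left out. Against day 2 alone CG3104 was -0.079 and CG17167 -0.14. With the maternal score CG3104 was -0.59, CG42342 0.34 and CG9512 0.54. The causes were not tested. The selection gave 21 genes at a fold of 2, 8 at 3, 23 at a minimum of 1 TPM, 5 at 5 TPM and 7 with median-ratio scaling.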
